A study of Mus musculus with 27 samples.

Results

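The livers of 7 female Balb/c mice, out of 27 mice in the series, show what carbon tetrachloride (CCl4) did to liver mRNA while an siRNA against hyaluronan synthase 2 was being given. The 3 siHAS2-LNP mice received the siRNA packed in lipid nanoparticles (LNP) through the tail vein and olive oil, the vehicle of CCl4, into the peritoneum. The 4 CCl4 + siHAS2-LNP mice received the same particle and CCl4 in place of plain oil. By the labels both groups carried particle and siRNA and differed in CCl4 alone. Per the methods of the study, the mice were 8 weeks old, the particle was begun 2 days before the first CCl4 injection and the schedule ran for 2 weeks, with 1 mg/kg siRNA first and 0.5 mg/kg in later doses. PolyA RNA of whole liver was sequenced, and the values are counts of read pairs per gene. Of the 55414 genes in the count table, the 14114 with a mean of at least 10 counts over all 27 libraries were compared. For the side-by-side values at the end, 3 siLuc-LNP and 4 CCl4 + siLuc-LNP mice got an siRNA against luciferase in the same particle, and 4 control and 2 CCl4 mice got no particle, the control mice having had olive oil and tail vein saline. Whole liver mixes all its cells, CCl4 given for 2 weeks is an early and short injury, and the labels name no batch or day. In mouse numbers, treated stands for CCl4 + siHAS2-LNP and untreated for siHAS2-LNP.

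CCl4 is made toxic inside hepatocytes by cytochrome P450 enzymes, above all CYP2E1, which sit in the cells around the central vein. Cells there die, the remaining hepatocytes divide to restore the tissue, macrophages clear the debris, and hepatic stellate cells turn into collagen-making myofibroblasts. Hyaluronan is a long sugar polymer of the matrix. It is made at the plasma membrane by HAS1, HAS2 and HAS3, broken down by hyaluronidases, bound by CD44 and HMMR, and taken up from blood by the sinusoidal receptors STAB2 and LYVE1. HAS2 is the form best known from activated stellate cells.

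The siRNA is shown first because it is what both groups share. Its strands, without the overhangs of modified thymidine, are given 5′ to 3′ with the seed of the guide strand, bases 2 to 8, in capitals.
sense strand: uuacggaaauguuugcaa
antisense strand: aUUGCAAAcauuuccgua
The guide pairs along its 18 bases with a single stretch of the Has2 transcript ENSMUST00000050544.9, in the coding sequence of exon 2 of 4, at chr15:56545288-56545305 on the minus strand of GRCm39. The stretch is given on the mRNA strand with 6 flanking bases on either side, and the capitals mark the paired bases.
Has2 target site: actactTACGGAAATGTTTGCAATctgtga
Counts of Has2 itself were 0 in all 7 livers, so the knockdown could not be read here. These zeros were not particular to siHAS2-LNP. Elsewhere in the series Has2 had 2 counts in CCl4 mouse 2, 1 in CCl4 + siLuc-LNP mouse 4 and 0 in every other liver. A count of 0 allows 3 counts, or 0.117 CPM (counts per 1000000 of the TMM-scaled total of the genes compared) in treated mouse 1, the deepest library of the 7, and 0.401 CPM in mouse 4, the shallowest, and such limits cover counting error only. Has1 had 3, 0 and 0 counts without CCl4 and 1, 0, 0 and 8 with it, and Has3 had 4, 1 and 2 against 3, 4, 6 and 1. All 3 synthases were below the level at which genes were compared.

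Totals ran from 18146198 to 25015526 counts in the siHAS2-LNP mice and from 7044386 to 25305105 in the CCl4 + siHAS2-LNP mice, mouse 4 having the lowest total of the 27. Values of treated mouse 4 are thus the least precise of the 7. On the first principal component of the 7 livers, with 57.2% of the variance, the 4 CCl4 livers lay apart from the other 3, and on the second, with 14.6%, CCl4 + siHAS2-LNP mice 1 and 4 lay at opposite ends (-31.5 and 31.6). Mitochondrial genes took 2.94 to 4.47% of counts in 6 of the 7 livers and 8.10% in treated mouse 3, the highest share of the 27. Haemoglobin mRNA, a mark of blood left in the tissue, took 0.0491 to 0.0578% of counts without CCl4 and 0.00619 to 0.0325% with it. Hepatocyte markers were abundant in every liver. Alb, serum albumin, was at 126296, 132527 and 143231 CPM in the siHAS2-LNP mice and at 130442, 100567, 86445 and 100075 CPM in the CCl4 + siHAS2-LNP mice. The ranges overlapped, 1 treated mouse lying above 1 untreated one, and the change missed the threshold (log2 fold change -0.36 ± 0.22 SE, adjusted p = 0.308). None of the 8 hepatocyte markers passed the test, and their summed level was 177516 to 201504 CPM without CCl4 and 134864 to 204303 CPM with it.

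CCl4 changed 1812 of the 14114 genes in the siHAS2-LNP mice at an adjusted p under 0.05 (quasi-likelihood test of edgeR, adjusted by Benjamini-Hochberg, as for each adjusted p given). Of these, 1093 were higher (7.74% of genes tested) and 719 lower (5.09%). By more than 2 on the log2 scale, 303 rose and 95 fell. The 4 treated and 3 untreated mice did not overlap for 1727 of the 1812, and for 3906 (27.7%) of all genes tested. The median log2 fold change over all genes tested was 0.03, and the lists below are to be read against these shares and this median. Under limma-voom with sample quality weights 3455 genes passed, and several list counts below were higher there, with 6 plasma protein genes and 6 of amino acid catabolism lower where edgeR called 1 each, 5 red blood cell genes lower where it called 0, and 16 of cholesterol synthesis lower where it called 9. With single mice left out, 1036 to 1773 genes passed, and leaving out untreated mouse 1, 2 or 3 gave 1103, 1036 and 1056. Values of single mice are given throughout in the order of their numbers, as CPM, fold changes as log2 with their standard error (SE), and gene positions in GRCm39 from GENCODE.

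**Figure D1:**
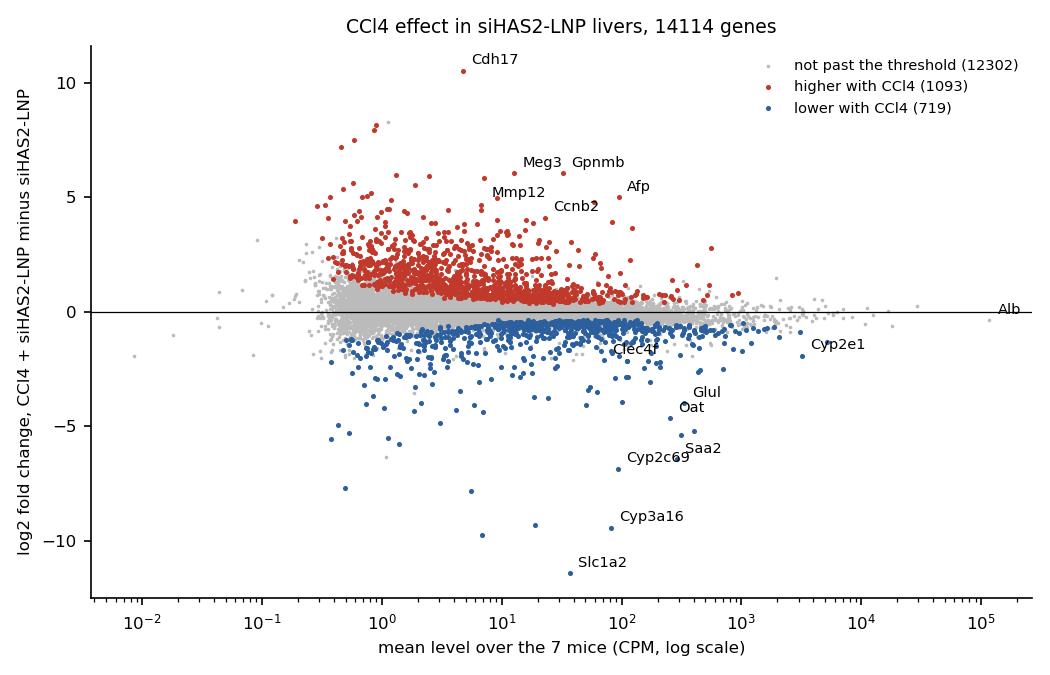
Log2 fold change (vertical axis, CCl4 + siHAS2-LNP minus siHAS2-LNP) against mean level over the 7 mice (horizontal axis, CPM on a log scale) for the 14114 genes tested. Red and blue points are the 1093 genes higher and the 719 lower with CCl4, grey points are not past the threshold. Slc1a2 and Cyp3a16 are among the genes at the bottom of the plot and Cdh17 among those at the top.

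Most of the largest rises began at or near 0. Cdh17 (ENSMUSG00000028217, chromosome 4, 11758147 to 11817895, plus strand), a cadherin of intestinal epithelium, had 0 counts in the 3 siHAS2-LNP mice and 18.6, 8.69, 3.41 and 2.404 CPM in the CCl4 + siHAS2-LNP mice, at least 56.2-fold higher against a floor of 3 counts per library (adjusted p = 4.16e-05). Levels differed among the treated mice, mouse 1 being the highest. Cyp21a1 (ENSMUSG00000024365, chromosome 17, 35018835 to 35024036, minus strand), the adrenal steroid 21-hydroxylase, was also at 0 counts without CCl4 and at 3.72, 1.42, 0.321 and 0.801 CPM with it, at least 10.6-fold higher (adjusted p = 0.000351). Cacna1b, a neuronal calcium channel subunit, went from 0 counts to 1.41, 0.830, 0.963 and 0.935 CPM (at least 7.02-fold, adjusted p = 0.000483), and Tceal5 from at most 2 counts to 2.97, 2.002, 3.01 and 1.07 CPM (at least 15.4-fold, adjusted p = 1.66e-05). Meg3 (ENSMUSG00000021268, chromosome 12, 109506877 to 109538165, plus strand), a long noncoding RNA of the imprinted Dlk1-Meg3 locus, stood at 0.202, 0.377 and 0.419 CPM in the siHAS2-LNP mice and at 9.79, 25.6, 34.6 and 17.9 CPM in the CCl4 + siHAS2-LNP mice. Every treated mouse exceeded every untreated one, and Meg3 rose by 6.07 ± 0.68 (SE) on the log2 scale (adjusted p = 1.31e-06). Of the same imprinted locus on chromosome 12, Dlk1, a membrane protein of fetal liver, had 0 counts without CCl4 and 0.626, 1.71, 1.004 and 2.67 CPM with it (at least 10.2-fold, adjusted p = 0.000388).

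Slc1a2 (ENSMUSG00000005089, chromosome 2, 102488574 to 102621129, plus strand), a glutamate transporter of the hepatocytes next to the central vein, was at 83.0, 86.3 and 90.4 CPM in the siHAS2-LNP mice and at 0.0391, 0, 0 and 0.134 CPM in the CCl4 + siHAS2-LNP mice. That is 0 or 1 count in each treated liver, at least 441-fold lower (adjusted p = 2.58e-14). Nat8f7, a member of an acetyltransferase family, was 2.63, 4.01 and 2.87 CPM without CCl4 and 0, 0, 0.120 and 0.134 CPM with it, at least 16.1-fold lower (adjusted p = 3.51e-05). The other 6 of the 8 largest falls, Cyp3a41b, Cyp3a16, Cyp3a41a, Sult3a1, Cyp2c69 and Saa2, are described with their families.

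Genes of CCl4 bioactivation and of the pericentral zone fell. Of 22 tested, 12 were lower and 0 higher, with a median of -0.99 against 0.03 over all genes, and 11 of the 12 kept the call with each single mouse left out. Their summed level was 18319 to 21543 CPM without CCl4 and 8435 to 10304 CPM with it. In whole liver, fewer cells of a kind and less RNA per cell cannot be told apart, here and for every cell type below. Glul (ENSMUSG00000026473, chromosome 1, 153775690 to 153785469, plus strand), glutamine synthetase, which marks the innermost ring of hepatocytes, was at 618, 823 and 706 CPM in the siHAS2-LNP mice and at 37.5, 48.6, 43.0 and 50.5 CPM in the CCl4 + siHAS2-LNP mice. The highest treated mouse was far below the lowest untreated one, and Glul fell by 3.997 ± 0.23 (SE) on the log2 scale (adjusted p = 7.31e-12). Oat, ornithine aminotransferase of the same ring, was at 525, 559 and 604 CPM without CCl4 and 22.7, 20.9, 23.6 and 22.3 CPM with it, and fell by 4.65 ± 0.24 (SE) on the log2 scale (adjusted p = 9.86e-13). Cyp2a5, the mouse coumarin hydroxylase, was at 687, 514 and 942 CPM without CCl4 and 19.4, 10.01, 16.9 and 21.5 CPM with it. No treated value came near an untreated one, and it fell by 5.41 ± 0.44 (SE) on the log2 scale (adjusted p = 6.96e-09).

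Cyp2e1 (ENSMUSG00000025479, chromosome 7, 140343652 to 140355167, plus strand), the enzyme that activates CCl4 itself, was at 5196, 5302 and 6041 CPM in the siHAS2-LNP mice and at 1834, 1123, 1537 and 1359 CPM in the CCl4 + siHAS2-LNP mice. It fell by 1.91 ± 0.35 (SE) on the log2 scale (adjusted p = 0.000689), with all treated values below all untreated ones. The ammonium transporter gene Rhbg fell by 2.74 ± 0.50 (SE) on the log2 scale (adjusted p = 0.000644). Among close members of the Cyp2c family, whose shared reads were not counted, Cyp2c38 fell by 3.50 ± 0.32 (SE) on the log2 scale (adjusted p = 9.06e-08), Cyp2c54 fell by 1.44 ± 0.33 (SE) on the log2 scale (adjusted p = 0.00442) and Cyp2c37 fell by 1.41 ± 0.30 (SE) on the log2 scale (adjusted p = 0.00222). Gulo, the last enzyme of vitamin C synthesis, fell by 1.13 ± 0.22 (SE) on the log2 scale (adjusted p = 0.00129). Of the 10 members not past the threshold, Cyp1a2 was at 919, 925 and 1171 CPM without CCl4 and 640.1, 354, 389 and 573 CPM with it (log2 fold change -1.04 ± 0.36 SE, adjusted p = 0.0611), and Por, the reductase that serves all microsomal P450 enzymes, at -0.23. The Wnt targets Axin2 and Lgr5, with log2 fold changes of 0.78 and -0.41, and the transcription factor gene Tbx3, with -0.09, were not past the threshold either. Rgn, the twelfth call, fell by 0.85 ± 0.22 (SE) on the log2 scale (adjusted p = 0.0119), a call lost without untreated mouse 2 (adjusted p = 0.0786).

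Few periportal and urea cycle genes passed. Of 23 tested, 3 were higher and 2 lower, with a median of -0.19. Pck1 (ENSMUSG00000027513, chromosome 2, 172994744 to 173001066, plus strand), the enzyme that commits carbon to gluconeogenesis, was at 1493, 1753 and 1791 CPM in the siHAS2-LNP mice and at 609, 445, 422 and 556 CPM in the CCl4 + siHAS2-LNP mice, so that the highest treated mouse had less than the lowest untreated one, and fell by 1.72 ± 0.45 (SE) on the log2 scale (adjusted p = 0.012). Cdh1, E-cadherin, which is higher in periportal hepatocytes, was at 19.9, 27.02 and 30.3 CPM without CCl4 and 85.7, 103, 97.1 and 106 CPM with it. It rose by 1.93 ± 0.25 (SE) on the log2 scale (adjusted p = 9.14e-06). Aldh1b1, a mitochondrial aldehyde dehydrogenase, rose by 1.37 ± 0.24 (SE) on the log2 scale (adjusted p = 0.000412), and Hsd17b13, of lipid droplets, rose by 1.16 ± 0.25 (SE) on the log2 scale (adjusted p = 0.0023). The lower call of Pigr, which carries antibodies into bile (log2 fold change -0.69 ± 0.22 SE, adjusted p = 0.0389), was lost without untreated mouse 1 or 3 or treated mouse 1, 2 or 3 (adjusted p from 0.0647 to 0.122), where the list kept 1 lower call in each case. None of the enzymes of the urea cycle passed the threshold, their log2 fold changes being 0.57 for Cps1, -0.36 for Otc, 0.10 for Ass1, -0.54 for Asl and -0.24 for Arg1. Amino acid catabolism showed 1 call among 19 genes, with a median of -0.36. It was Haao, of tryptophan breakdown, at -0.94 (adjusted p = 0.0207), lost without untreated mouse 2 or 3 or treated mouse 2 or 3 (adjusted p from 0.0535 to 0.0797).

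**Figure D2:**
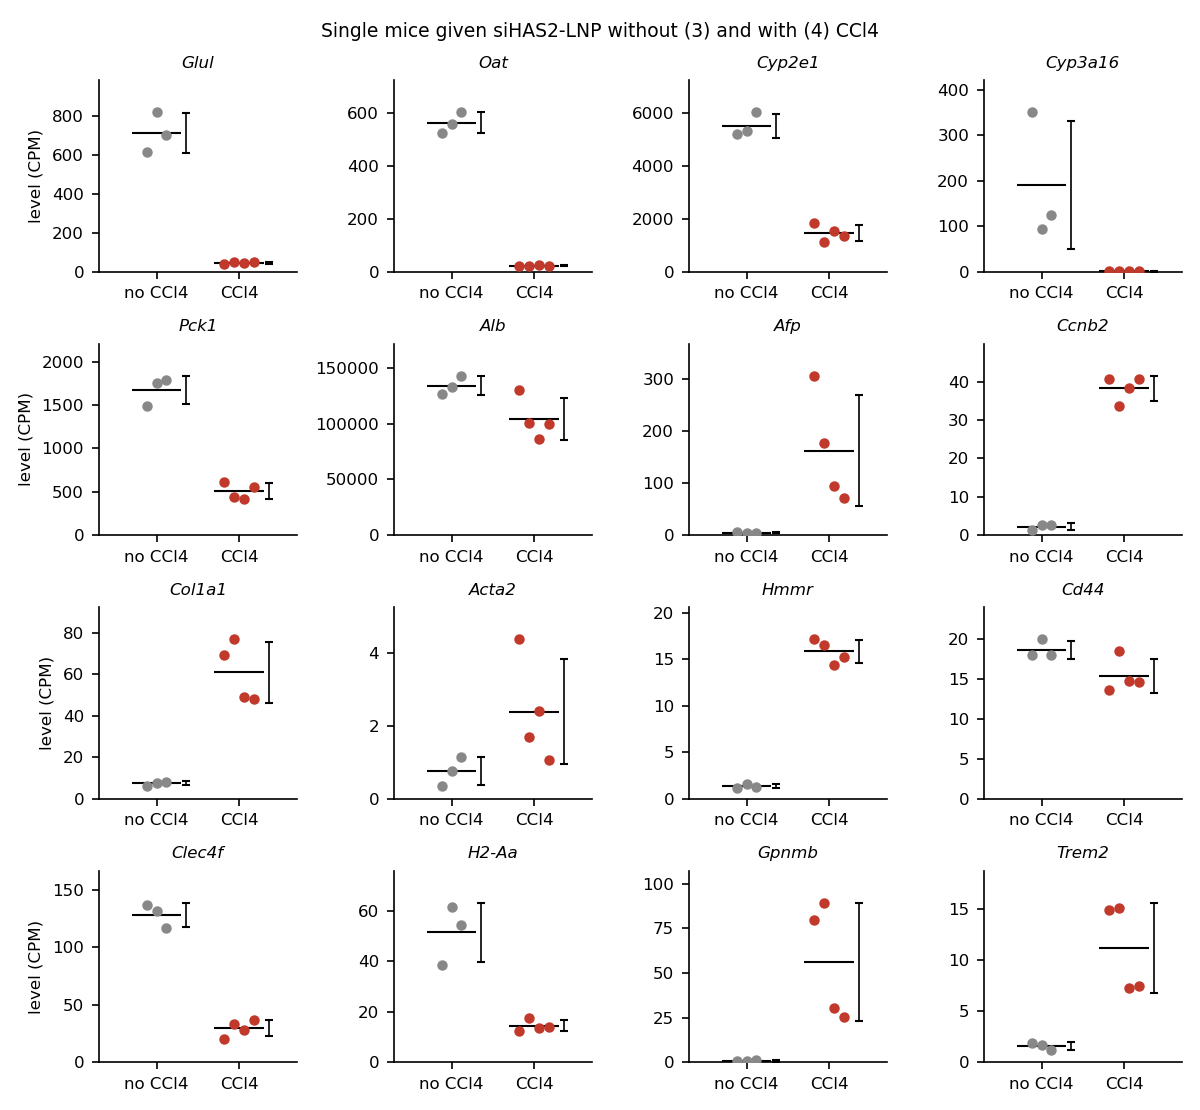
Level in CPM (vertical axes, each starting at 0) of 16 genes in the 3 siHAS2-LNP mice (grey) and the 4 CCl4 + siHAS2-LNP mice (red). Points are mice, horizontal lines are group means and vertical bars span 1 SD on either side, and the groups stand apart for Glul, Oat, Cyp2e1, Ccnb2, Col1a1, Hmmr and Clec4f, while Acta2 and Cd44 overlap.

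Genes that depend on growth hormone or are higher in female liver had the lowest median of the lists examined. Female mice secrete growth hormone in a nearly steady pattern, which keeps a set of P450 and sulfotransferase genes on in their livers. Of 21 tested, 17 were lower and 0 higher, all 21 had a negative log2 fold change, the median was -2.20, and 12 of the 17 kept the call with each mouse left out. Cyp3a16 (ENSMUSG00000038656, chromosome 5, 145373119 to 145406533, minus strand) was at 352, 93.5 and 126 CPM in the siHAS2-LNP mice and at 0.117, 0.146, 0.201 and 1.20 CPM in the CCl4 + siHAS2-LNP mice. The treated mice were all near 1 CPM or below, and it fell by 9.43 ± 0.69 (SE) on the log2 scale (adjusted p = 1.1e-09). Its neighbours Cyp3a41a and Cyp3a41b, nearly identical copies whose separate counts are uncertain, had at most 2 and 1 counts in any treated mouse. Cyp3a41a was lower by a factor of at least 227 (adjusted p = 5.53e-09) and Cyp3a41b by one of at least 81.5 (adjusted p = 7.21e-07). Cyp3a44, of the same cluster on chromosome 5, was at 550.0, 281 and 309 CPM without CCl4 and 76.2, 62.2, 94.7 and 98.3 CPM with it. It fell by 2.199 ± 0.32 (SE) on the log2 scale (adjusted p = 3.98e-05).

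The sulfotransferase Sult3a1 was at 4.64, 20.3 and 13.7 CPM in the siHAS2-LNP mice and at 0, 0.0977, 0.0803 and 0 CPM in the CCl4 + siHAS2-LNP mice, at least 65.6-fold lower (adjusted p = 6.1e-06). Treated mice had 0 to 2 counts. Cyp2c69 was at 278, 272 and 94.4 CPM without CCl4 and 1.37, 1.22, 1.28 and 4.81 CPM with it, and fell by 6.86 ± 0.63 (SE) on the log2 scale (adjusted p = 9.06e-08). Sult2a3 fell by 4.37 ± 0.60 (SE) on the log2 scale (adjusted p = 2.13e-05) and Sult2a1, which sulfates steroids and bile acids, fell by 2.52 ± 0.49 (SE) on the log2 scale (adjusted p = 0.00109). Of the 2b family, Cyp2b13 fell by 3.30 ± 0.35 (SE) on the log2 scale (adjusted p = 6.5e-07) and Cyp2b9 fell by 1.15 ± 0.26 (SE) on the log2 scale (adjusted p = 0.00413). Of the hormone pathway itself, the growth hormone receptor gene Ghr was at 448, 474 and 412 CPM without CCl4 and 143, 237, 241.2 and 322 CPM with it. It fell by 0.92 ± 0.25 (SE) on the log2 scale (adjusted p = 0.016), a call lost without untreated mouse 2 (adjusted p = 0.0608). Igfals, the carrier of circulating IGF1, fell by 1.09 ± 0.29 (SE) on the log2 scale (adjusted p = 0.0129). The call of Igf1, the main hormone output of this pathway (log2 fold change -0.61 ± 0.20 SE, adjusted p = 0.0407), was lost without untreated mouse 1 or 2 or treated mouse 1, 2 or 3 (adjusted p from 0.0627 to 0.184), and that of the prolactin receptor gene Prlr (log2 fold change -1.07 ± 0.27 SE, adjusted p = 0.0105) was lost without untreated mouse 1 (adjusted p = 0.0582). Cux2, Socs2 and Cyp17a1 did not pass, at -1.34, -0.90 and -0.23.

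Of 26 plasma protein genes, 1 was lower and 0 higher, with a median of -0.25. It was Apoa2, of high-density lipoprotein, at 6400.4, 8851 and 8679 CPM in the siHAS2-LNP mice and at 3289, 2486, 3302 and 3523 CPM in the CCl4 + siHAS2-LNP mice, which fell by 1.34 ± 0.30 (SE) on the log2 scale (adjusted p = 0.00343). Hrg, histidine-rich glycoprotein, was at 1406, 1164 and 1403 CPM without CCl4 and 1262, 866, 832 and 858 CPM with it, the ranges overlapping (log2 fold change -0.47 ± 0.26 SE, adjusted p = 0.257). No transcription factor or nuclear receptor of hepatocyte identity, of 16 tested, passed the threshold, the median being -0.16. Hnf4a stood at 471, 402 and 510.0 CPM without CCl4 and 512, 531, 423 and 544 CPM with it (log2 fold change 0.13 ± 0.18 SE, adjusted p = 0.699). Cebpa had a log2 fold change of -0.27 and Foxa2 of -0.32.

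Of 24 complement genes, 7 were lower and 0 higher, with a median of -0.33. C1qa, C1qb and C1qc, the 3 chains of C1q, which liver macrophages make, fell by 1.30 ± 0.22, 1.13 ± 0.25 and 1.02 ± 0.22 (SE) on the log2 scale (adjusted p = 0.000325, 0.00306 and 0.00322). C1qa stood at 74.4, 74.4 and 89.5 CPM in the siHAS2-LNP mice and at 31.5, 38.1, 25.6 and 34.3 CPM in the CCl4 + siHAS2-LNP mice, with the treated mice all below. Mbl1, a lectin of hepatocytes that starts the complement cascade, fell by 0.85 ± 0.17 (SE) on the log2 scale (adjusted p = 0.00136), and Serping1, the C1 inhibitor, fell by 0.84 ± 0.18 (SE) on the log2 scale (adjusted p = 0.00319). C8g and C6 also passed, at -1.01 (adjusted p = 0.0208, lost without untreated mouse 2 or 3 or treated mouse 2 or 3 at adjusted p from 0.059 to 0.0764) and -0.99 (adjusted p = 0.0333, lost without untreated mouse 1 or 3 or treated mouse 1 or 2 at adjusted p from 0.078 to 0.115). C3, the central component, did not pass (log2 fold change -0.53 ± 0.25 SE, adjusted p = 0.174).

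Among acute-phase genes the largest falls rested on 1 untreated mouse. Saa2 (ENSMUSG00000057465, chromosome 7, 46401214 to 46403737, plus strand), a serum amyloid A gene that rises within hours of inflammation, was at 49.1, 1909.9 and 48.0 CPM in the siHAS2-LNP mice and at 2.97, 8.01, 4.70 and 16.8 CPM in the CCl4 + siHAS2-LNP mice. Mouse 2 of the siHAS2-LNP group stood far above the other two of its group, and the treated mice were lower still. Saa2 fell by 6.45 ± 1.14 (SE) on the log2 scale (adjusted p = 0.000412), and without untreated mouse 2 the log2 fold change was -2.68 (adjusted p = 0.0415). Saa1, a near-identical copy whose counts are uncertain for that reason, was at 82.9, 2565 and 70.9 CPM without CCl4 and 13.3, 25.0, 14.8 and 46.3 CPM with it (log2 fold change -5.21 ± 0.97 SE, adjusted p = 0.000737) and lost the call without untreated mouse 2 (adjusted p = 0.141). Orm3, one of a family of close copies of acid glycoprotein, fell by 1.94 ± 0.47 (SE) on the log2 scale (adjusted p = 0.00791), while Orm2 (log2 fold change -1.70 ± 0.56 SE, adjusted p = 0.0464), whose ranges overlapped, was lost without untreated mouse 1 or 2 or treated mouse 1, 2 or 3 (adjusted p from 0.0582 to 0.316). Of 21 acute-phase genes tested, 4 were lower and 0 higher (median -0.16), and 2 without untreated mouse 2. The fibrinogen genes Fga, Fgb and Fgg had log2 fold changes of -0.04, -0.16 and -0.14, and Hp, haptoglobin, of -0.06, with none past the threshold.

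Of 18 genes of bile acid synthesis and transport, 6 were lower and 1 higher, with a median of -0.73. Cyp7b1, the hydroxylase of the alternative pathway of bile acid synthesis, was at 24.4, 33.9 and 26.1 CPM in the siHAS2-LNP mice and at 2.31, 4.25, 3.93 and 5.61 CPM in the CCl4 + siHAS2-LNP mice. Treated and untreated mice were well apart, and it fell by 2.86 ± 0.27 (SE) on the log2 scale (adjusted p = 1.23e-07). Cyp7a1, the first and rate-limiting enzyme of the classical pathway, was at 127, 155 and 102 CPM in the siHAS2-LNP mice and at 71.6, 99.0, 143 and 221 CPM in the CCl4 + siHAS2-LNP mice, overlapping (log2 fold change 0.06 ± 0.48 SE, adjusted p = 0.956). Slco1b2, an uptake carrier for organic anions, fell by 0.77 ± 0.19 (SE) on the log2 scale (adjusted p = 0.00891). Only Cyp7b1 and Slco1b2 kept the lower call with every mouse left out, and without untreated mouse 1 or 3 or treated mouse 2 or 3 the lower calls numbered 3, 2, 2 and 2. The bile acid uptake carrier gene Slc10a1 (log2 fold change -0.71 ± 0.23 SE, adjusted p = 0.0401) lost its call without untreated mouse 1 or 3 or treated mouse 2 or 3 (adjusted p from 0.0974 to 0.13), and Cyp27a1 (log2 fold change -0.92 ± 0.30 SE, adjusted p = 0.0425) lost it without untreated mouse 1, 2 or 3 or treated mouse 2 or 3 (adjusted p from 0.0582 to 0.163). The higher gene, the export pump Abcc2 (log2 fold change 0.65 ± 0.20 SE, adjusted p = 0.0295), was lost without untreated mouse 1 or 2 or treated mouse 2, 3 or 4 (adjusted p from 0.05 to 0.165), and the lower Abcc4 (log2 fold change -0.96 ± 0.29 SE, adjusted p = 0.0303), whose ranges overlapped, without untreated mouse 1 or 3 or treated mouse 2 or 3 (adjusted p from 0.0635 to 0.263).

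Nearly all genes of mitosis tested rose. Of 34 tested, 32 were higher and 0 lower, all 34 had a positive log2 fold change, the median was 2.68, and 28 kept the call with each mouse left out. Their summed level was 108, 133 and 115 CPM without CCl4 and 611, 559, 552 and 589.9 CPM with it. The 4 treated mice lay close together and far above the untreated ones. Ccnb2 (ENSMUSG00000032218, chromosome 9, 70314966 to 70328874, minus strand), a cyclin that drives entry into mitosis, was at 1.29, 2.74 and 2.69 CPM in the siHAS2-LNP mice and at 40.6, 33.6, 38.4 and 40.6 CPM in the CCl4 + siHAS2-LNP mice. It rose by 4.11 ± 0.44 (SE) on the log2 scale (adjusted p = 6.5e-07). Mki67, the proliferation antigen Ki-67, was at 9.81, 12.6 and 9.03 CPM without CCl4 and 63.5, 67.8, 74.6 and 66.6 CPM with it. It rose by 2.70 ± 0.44 (SE) on the log2 scale (adjusted p = 0.00017). Neither gene overlapped between the groups. Ttk, a kinase of the spindle checkpoint, rose by 3.82 ± 0.51 (SE) on the log2 scale (adjusted p = 1.63e-05), Ccnb1 rose by 3.53 ± 0.50 (SE) on the log2 scale (adjusted p = 3.38e-05), and Kif20a, a kinesin of cell division, rose by 3.48 ± 0.48 (SE) on the log2 scale (adjusted p = 2.33e-05). The mitotic kinase gene Plk1 rose by 2.75 ± 0.44 (SE) on the log2 scale (adjusted p = 0.000164), and Cdk1, which the cyclins switch on, rose by 2.36 ± 0.45 (SE) on the log2 scale (adjusted p = 0.001). Kif23 and Smc2 did not pass (log2 fold change 1.14 ± 0.40 SE, adjusted p = 0.0613 and log2 fold change 1.28 ± 0.45 SE, adjusted p = 0.0605).

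Fewer genes of DNA replication passed. Of 29 tested, 7 were higher and 0 lower, with a median of 0.64, 28 of 29 having a positive log2 fold change. The summed level was 279, 299 and 272 CPM without CCl4 and 493, 418, 436 and 422 CPM with it, without overlap. Mcm6 (ENSMUSG00000026355, chromosome 1, 128259311 to 128287516, minus strand), a subunit of the helicase that opens DNA, was at 4.48, 5.14 and 3.65 CPM in the siHAS2-LNP mice and at 22.9, 18.8, 15.4 and 19.6 CPM in the CCl4 + siHAS2-LNP mice, with every treated value above every untreated one, and rose by 2.11 ± 0.50 (SE) on the log2 scale (adjusted p = 0.00602). Rrm2, the regulated subunit of ribonucleotide reductase, was at 1.53, 2.08 and 1.79 CPM without CCl4 and 9.59, 9.81, 11.7 and 10.7 CPM with it. It rose by 2.54 ± 0.58 (SE) on the log2 scale (adjusted p = 0.00466). Gins2 rose by 1.91 ± 0.33 (SE) on the log2 scale (adjusted p = 0.000354) and Tyms, thymidylate synthase, rose by 1.19 ± 0.25 (SE) on the log2 scale (adjusted p = 0.00236). These 4 kept the call with each mouse left out, and without untreated mouse 2 or 3 they were the 4 calls of the list. Uhrf1, which passes DNA methylation on after replication, was at 1.66, 1.32 and 1.73 CPM without CCl4 and 9.55, 5.32, 5.50 and 5.61 CPM with it, with treated mouse 1 well above the other treated mice (log2 fold change 2.06 ± 0.63 SE, adjusted p = 0.0302), and its call was lost without untreated mouse 1, 2 or 3 or treated mouse 1 (adjusted p from 0.074 to 0.119). Pcna, the sliding clamp of the polymerases, was at 31.0, 30.5 and 30.1 CPM without CCl4 and 44.8, 35.7, 43.4 and 37.5 CPM with it (log2 fold change 0.40 ± 0.27 SE, adjusted p = 0.359). Mcm2, Mcm3, Mcm4 and Mcm7, further helicase subunits, had log2 fold changes of 0.67, 0.67, 0.52 and 0.45, none past the threshold.

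**Figure D3:**
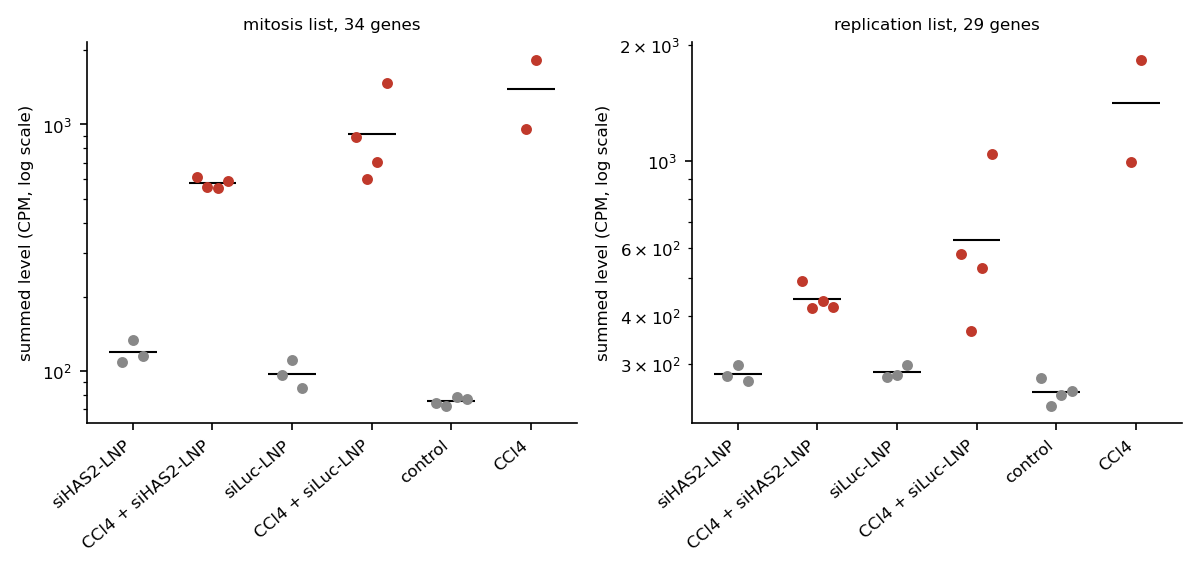
Summed level in CPM (vertical axes, log scale) of the mitosis list (34 genes, left) and the replication list (29 genes, right) in the mice of 6 groups. Points are mice and lines group means, and the CCl4 + siHAS2-LNP mice sit at 552 to 611 CPM for mitosis and at 418 to 493 CPM for replication, and the CCl4 + siLuc-LNP mice at 602 to 1475 and 365 to 1043 CPM.

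Mitotic genes are turned on late in the cell cycle through CHR elements and CCAAT boxes, and replication genes earlier through E2F sites. Promoters of RefSeq (GRCm38.p6), from 250 bases before to 50 after the start, were searched on both strands for CCAAT, for TTTGAA (CHR), for TTTCCCGC and TTTGGCGC (E2F) and for TCACCCCAC (a sterol response element, SRE), none of which contains another. CCAAT reads ATTGG on the opposite strand. RefSeq promoters matched 29 of the 34 mitosis genes and 23 of the 29 replication genes. TTTGAA was in 21 of the 29 mitosis genes (72.4%), in 5 of the 23 replication genes (21.7%) and in 15.0% of the 10424 tested genes matched. CCAAT was in 24 of the 29 (82.8%), 16 of the 23 (69.6%) and 42.8% of all matched. TTTGGCGC was in 0 of the 29, 6 of the 23 (26.1%) and 1.09%, and TTTCCCGC in 1, in 5 (21.7%) and in 2.27%. Ccnb2, the largest rise of the mitosis list, and Mcm6, a helicase gene of the replication list, are shown because their promoters hold the motifs of their lists, a choice made after the search. Each runs from 250 bases before to 20 after the start, with motif matches on either strand in capitals.
Ccnb2, chr9:70421535-70421804, minus strand: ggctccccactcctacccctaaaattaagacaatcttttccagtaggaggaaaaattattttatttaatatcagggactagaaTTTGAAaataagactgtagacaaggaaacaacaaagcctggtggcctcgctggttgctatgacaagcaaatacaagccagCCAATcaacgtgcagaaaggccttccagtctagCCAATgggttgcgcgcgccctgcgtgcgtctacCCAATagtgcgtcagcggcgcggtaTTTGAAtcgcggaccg
Mcm6, chr1:128359686-128359955, minus strand: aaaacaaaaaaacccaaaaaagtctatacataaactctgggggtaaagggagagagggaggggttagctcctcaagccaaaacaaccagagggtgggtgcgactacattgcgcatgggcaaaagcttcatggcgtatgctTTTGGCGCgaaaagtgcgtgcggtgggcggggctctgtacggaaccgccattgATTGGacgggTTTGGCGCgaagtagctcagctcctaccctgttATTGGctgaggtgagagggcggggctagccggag
Ccnb2 holds 3 CCAAT boxes and 2 CHR matches, and Mcm6 holds 2 copies of TTTGGCGC and 2 CCAAT boxes. A match is a run of letters and not a measured binding site.

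Of 13 G1 cyclins and inhibitors tested, 3 were higher and 0 lower, with a median of 0.67. Cdkn1b, the inhibitor p27, was at 18.9, 17.97 and 16.7 CPM without CCl4 and 27.5, 31.4, 34.7 and 31.5 CPM with it, and rose by 0.81 ± 0.14 (SE) on the log2 scale (adjusted p = 0.000314). Cdkn2c, the inhibitor p18, rose by 1.30 ± 0.19 (SE) on the log2 scale (adjusted p = 5.98e-05). E2f1 (log2 fold change 1.33 ± 0.35 SE, adjusted p = 0.013) lost its call without untreated mouse 2 or 3 (adjusted p from 0.0539 to 0.0618). Ccnd1, cyclin D1, did not pass (log2 fold change 0.17 ± 0.54 SE, adjusted p = 0.879). No immediate early gene of 14 passed (median 0.06), Myc being at 0.15, Fos at -0.32 and Egr1 at 2.09 (adjusted p = 0.16). Of 9 YAP targets, 2 were higher (median 0.33). Crim1 (log2 fold change 1.004 ± 0.23 SE, adjusted p = 0.00456) was lost without untreated mouse 2 (adjusted p = 0.0521) and Tead1 (log2 fold change 0.66 ± 0.18 SE, adjusted p = 0.0186) without untreated mouse 1 or 2 or treated mouse 2 (adjusted p from 0.0516 to 0.132), so that none was left without untreated mouse 2, while Ccn1 and Ccn2 were at -0.03 and -0.11.

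Targets of p53, which halts damaged cells, rose in part. Of 17 tested, 9 were higher and 0 lower, with a median of 0.71, and 6 kept the call with each mouse left out. Phlda3, a brake on Akt signalling, was at 1.05, 1.698 and 1.79 CPM in the siHAS2-LNP mice and at 12.8, 13.7, 13.9 and 14.0 CPM in the CCl4 + siHAS2-LNP mice. Even the lowest treated mouse exceeded all untreated ones, and it rose by 3.18 ± 0.27 (SE) on the log2 scale (adjusted p = 2.49e-08). Eda2r, a death-domain receptor, was at 0.283, 0.189 and 0.239 CPM without CCl4 and 1.68, 3.52, 2.61 and 3.47 CPM with it. It rose by 3.51 ± 0.61 (SE) on the log2 scale (adjusted p = 0.00033). Tnfrsf10b, the receptor of the ligand TRAIL, rose by 2.21 ± 0.36 (SE) on the log2 scale (adjusted p = 0.000157), and Mdm2, which degrades p53, rose by 0.73 ± 0.18 (SE) on the log2 scale (adjusted p = 0.00739). Cdkn1a, the inhibitor p21, was at 11.5, 14.1 and 9.15 CPM without CCl4 and 27.8, 37.3, 42.9 and 37.0 CPM with it, without overlap (log2 fold change 1.64 ± 0.55 SE, adjusted p = 0.0483), and was lost without untreated mouse 1, 2 or 3 or treated mouse 2, 3 or 4 (adjusted p from 0.0716 to 0.17). Bax and Gdf15 did not pass (0.57 and 0.87).

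Of 14 ATF4 targets, 4 were higher and 1 lower, with a median of 0.52, and the higher genes were enzymes of serine and asparagine synthesis and of mitochondrial folate. Phgdh (ENSMUSG00000053398, chromosome 3, 98220484 to 98255047, minus strand), the first enzyme of serine synthesis, was at 0.162, 0.377 and 0.299 CPM in the siHAS2-LNP mice and at 10.1, 6.88, 3.73 and 3.61 CPM in the CCl4 + siHAS2-LNP mice. All treated mice exceeded the untreated ones, and Phgdh rose by 4.47 ± 0.53 (SE) on the log2 scale (adjusted p = 2.73e-06). Psat1, the next enzyme, was at 0.525, 0.472 and 0.598 CPM without CCl4 and 20.4, 12.4, 8.35 and 4.41 CPM with it. It rose by 4.45 ± 0.52 (SE) on the log2 scale (adjusted p = 2.1e-06), and Asns, asparagine synthetase, was at 0.687, 0.896 and 0.598 CPM without CCl4 and 19.3, 6.15, 8.63 and 7.61 CPM with it. It rose by 3.84 ± 0.78 (SE) on the log2 scale (adjusted p = 0.00161). Mthfd2 (log2 fold change 1.40 ± 0.40 SE, adjusted p = 0.0215) lost its call without untreated mouse 1 or 3 or treated mouse 1 (adjusted p from 0.0524 to 0.111). The lower gene was Vldlr, a lipoprotein receptor (log2 fold change -1.89 ± 0.38 SE, adjusted p = 0.00132). Atf4 itself, Ddit3 and Trib3 did not pass, at -0.36, -0.04 and 1.23. None of 20 chaperones of the endoplasmic reticulum passed, with a median of 0.01, Hspa5, the main one, being at 766, 709.7 and 809.6 CPM without CCl4 and 607, 826, 781 and 824 CPM with it (adjusted p = 0.994).

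Of 26 Nrf2 targets and glutathione S-transferases, 1 was higher and 2 lower, with a median of -0.03. Gstm6 fell by 1.40 ± 0.26 (SE) on the log2 scale (adjusted p = 0.000724). Gstp1 (log2 fold change 1.15 ± 0.35 SE, adjusted p = 0.0321) lost its call without untreated mouse 1 or 3 or treated mouse 1, 2 or 3 (adjusted p from 0.0515 to 0.147) and Gstt1 (log2 fold change -0.64 ± 0.21 SE, adjusted p = 0.0402) without untreated mouse 1, 2 or 3 or treated mouse 2, 3 or 4 (adjusted p from 0.0579 to 0.159). The classical Nrf2 targets Gclm, Gclc and Hmox1 had log2 fold changes of -0.35, 0.09 and -0.30, none past the threshold.

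Fetal liver genes rose in 6 of 10 tested, with a median of 2.46, or 2.201 with the genes at the floor set to their bounds. Afp (ENSMUSG00000054932, chromosome 5, 90638584 to 90656766, plus strand), alpha-fetoprotein, the albumin of the fetus, was at 6.10, 4.34 and 4.60 CPM in the siHAS2-LNP mice and at 307, 177, 94.4 and 71.8 CPM in the CCl4 + siHAS2-LNP mice. Treated mice ranged widely but all stood above the untreated ones, and it rose by 5.02 ± 0.49 (SE) on the log2 scale (adjusted p = 1.87e-07). Gpc3, a cell-surface proteoglycan of fetal liver and liver tumours, was at 0.929, 1.08 and 0.777 CPM without CCl4 and 17.6, 18.3, 13.8 and 11.6 CPM with it. It rose by 4.03 ± 0.38 (SE) on the log2 scale (adjusted p = 1.39e-07). H19, an imprinted noncoding RNA, was at 6.14, 12.5 and 8.61 CPM without CCl4 and 35.9, 174, 206 and 143 CPM with it. It rose by 3.95 ± 0.76 (SE) on the log2 scale (adjusted p = 0.00099). Dlk1 is given above. Tff3, at or below 3 counts in each untreated mouse and at least 5.92-fold higher (adjusted p = 0.0182), lost its call without untreated mouse 1 or 2 or treated mouse 2 (adjusted p from 0.0609 to 0.0949), and Igf2bp3 (log2 fold change 1.84 ± 0.53 SE, adjusted p = 0.0221) without untreated mouse 1 or 2 or treated mouse 2 (adjusted p from 0.0727 to 0.0962). The insulin-like growth factor gene Igf2 was not compared, with 0 counts without CCl4 and 0, 2, 0 and 0 with it.

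Collagen genes rose in 8 of 16 tested, with 0 lower and a median of 0.99. Their summed level was 203, 208 and 224 CPM without CCl4 and 417, 605, 398 and 425 CPM with it. Col1a1 (ENSMUSG00000001506, chromosome 11, 94827050 to 94843868, plus strand), the main chain of scar collagen, was at 6.34, 7.69 and 8.31 CPM in the siHAS2-LNP mice and at 69.6, 77.0, 49.3 and 48.1 CPM in the CCl4 + siHAS2-LNP mice. The treated mice stood far above the untreated ones, and Col1a1 rose by 3.04 ± 0.55 (SE) on the log2 scale (adjusted p = 0.000549). Col1a2, the partner chain, was at 14.5, 18.8 and 15.2 CPM without CCl4 and 59.8, 98.2, 46.7 and 56.8 CPM with it. It rose by 2.02 ± 0.46 (SE) on the log2 scale (adjusted p = 0.00466). Col5a2 rose by 1.76 ± 0.36 (SE) on the log2 scale (adjusted p = 0.00161) and Col6a3 rose by 1.64 ± 0.38 (SE) on the log2 scale (adjusted p = 0.0048). These 4 kept the call with each mouse left out. Col3a1, the chain of type III collagen, was at 33.0, 38.9 and 38.0 CPM without CCl4 and 83.1, 159, 87.4 and 103 CPM with it, again without overlap (log2 fold change 1.56 ± 0.44 SE, adjusted p = 0.0205), but was lost without untreated mouse 1, 2 or 3 or treated mouse 2 (adjusted p from 0.0693 to 0.0821). The basement membrane chains Col4a1 (log2 fold change 0.92 ± 0.27 SE, adjusted p = 0.027, lost without untreated mouse 1, 2 or 3 or treated mouse 2 at adjusted p from 0.0694 to 0.116) and Col4a2 (log2 fold change 0.99 ± 0.25 SE, adjusted p = 0.0111, lost without untreated mouse 2 at adjusted p = 0.0775) were also higher. Without untreated mouse 2 or 3 the list kept 4 and 5 calls.

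Of 17 enzymes and chaperones that process and crosslink collagen, 5 were higher and 1 lower, with a median of 0.58, but only Loxl2, a crosslinking oxidase, kept its call with each mouse left out. Loxl2 was at 2.79, 1.84 and 2.69 CPM without CCl4 and 7.28, 10.4, 8.91 and 6.94 CPM with it, each treated mouse above each untreated one, and rose by 1.79 ± 0.39 (SE) on the log2 scale (adjusted p = 0.00319). Lox, the founding member of the family, rose by 3.47 ± 0.85 (SE) on the log2 scale (adjusted p = 0.00784), lost without untreated mouse 1 (adjusted p = 0.052). Loxl1 (log2 fold change 1.60 ± 0.49 SE, adjusted p = 0.0315) was lost without untreated mouse 1, 2 or 3 or treated mouse 2 or 3 (adjusted p from 0.0568 to 0.136). Without untreated mouse 1, 2 or 3 or treated mouse 3, 1, 2, 3 and 2 higher calls were left. The lower call, P4ha2, a collagen prolyl hydroxylase (log2 fold change -0.86 ± 0.25 SE, adjusted p = 0.0253), was lost without untreated mouse 1 or 3 or treated mouse 2 or 4 (adjusted p from 0.0531 to 0.132).

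Of 24 matrix glycoproteins and proteoglycans, 7 were higher and 0 lower, with a median of 0.76. Nid1, nidogen of the basement membrane, was at 24.0, 12.1 and 16.4 CPM in the siHAS2-LNP mice and at 80.5, 115, 84.9 and 74.4 CPM in the CCl4 + siHAS2-LNP mice. Treated mice were all above untreated ones, and it rose by 2.34 ± 0.39 (SE) on the log2 scale (adjusted p = 0.00022). Lamc1, a laminin chain, rose by 0.90 ± 0.21 (SE) on the log2 scale (adjusted p = 0.00466). Eln, elastin (log2 fold change 1.52 ± 0.39 SE, adjusted p = 0.0106), was lost without untreated mouse 3 (adjusted p = 0.0587), Fstl1, a secreted follistatin-like protein (log2 fold change 1.42 ± 0.36 SE, adjusted p = 0.0107), without untreated mouse 1 (adjusted p = 0.0632), and Fbn1, fibrillin 1 (log2 fold change 1.28 ± 0.35 SE, adjusted p = 0.0178), without untreated mouse 1, 2 or 3 (adjusted p from 0.0606 to 0.0699). Leaving out untreated mouse 1, 2 or 3 left 3, 4 and 3 calls. Dcn and Fn1, decorin and fibronectin, did not pass (-0.37 and 0.20).

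Matrix proteases and their inhibitors were higher in 4 of 17, with a median of 0.58. Timp1 (ENSMUSG00000001131, chromosome X, 20736316 to 20740976, plus strand), the inhibitor of metalloproteinases made by activated stellate cells, was at 0.0404, 0.0472 and 0.179 CPM in the siHAS2-LNP mice and at 2.27, 1.71, 1.57 and 2.27 CPM in the CCl4 + siHAS2-LNP mice. Untreated mice had at most 3 counts, so that it was at least 13.3-fold higher (adjusted p = 1.03e-06). Mmp12, the elastase of macrophages, was at 0.0808, 0.330 and 0.239 CPM without CCl4 and 8.65, 27.5, 7.51 and 5.07 CPM with it, and rose by 5.86 ± 1.03 (SE) on the log2 scale (adjusted p = 0.000411), with treated mouse 2 above the other treated mice. Mmp14 (log2 fold change 0.58 ± 0.16 SE, adjusted p = 0.0152) was lost without untreated mouse 2 or 3 (adjusted p from 0.0907 to 0.111). Plat, tissue plasminogen activator (log2 fold change 1.85 ± 0.59 SE, adjusted p = 0.0399), whose ranges overlapped, was lost without untreated mouse 1, 2 or 3 or treated mouse 1, 2 or 3 (adjusted p from 0.0511 to 0.149). Without untreated mouse 2 or 3, 2 calls were left. Mmp2 and Mmp13 were not past the threshold (0.51 and 1.31).

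Markers of activated stellate cells rose beside the matrix genes, in 5 of 12 tested, with a median of 0.83 and a summed level of 105.1, 137 and 124 CPM without CCl4 and 320.1, 347, 357 and 240.9 CPM with it, and their part in the rise of matrix genes was not tested. Loxl2 and Timp1 stand in this list and in the matrix lists. Acta2, the smooth muscle actin that defines myofibroblasts, was at 0.364, 0.755 and 1.14 CPM in the siHAS2-LNP mice and at 4.38, 1.71, 2.41 and 1.07 CPM in the CCl4 + siHAS2-LNP mice. The lowest treated mouse had less than the highest untreated one, and the change missed the threshold (log2 fold change 1.79 ± 0.98 SE, adjusted p = 0.246). Des, desmin, was at 2.91, 3.25 and 3.71 CPM without CCl4 and 4.38, 4.74, 4.70 and 2.67 CPM with it (log2 fold change 0.36 ± 0.32 SE, adjusted p = 0.512). Spp1, osteopontin, also made by macrophages and duct cells, held a large part of the summed level, at 29.3, 45.9 and 36.8 CPM without CCl4 and 159.7, 205, 218 and 126 CPM with it. It rose by 2.25 ± 0.35 (SE) on the log2 scale (adjusted p = 0.0001), and Tpm1, a tropomyosin, rose by 0.76 ± 0.14 (SE) on the log2 scale (adjusted p = 0.000549). Of 12 markers of quiescent stellate cells, 1 was higher, Reln (log2 fold change 0.87 ± 0.26 SE, adjusted p = 0.0287, lost without untreated mouse 1, 2 or 3 or treated mouse 1 or 2 at adjusted p from 0.0577 to 0.121), and the median was -0.11. Lrat, which stores vitamin A, was at 12.8, 11.98 and 7.59 CPM without CCl4 and 10.2, 12.2, 12.4 and 10.8 CPM with it (log2 fold change 0.08 ± 0.32 SE, adjusted p = 0.913). Signalling genes of TGF-beta and PDGF gave 1 call of 17, Tgfb2 (log2 fold change 1.76 ± 0.56 SE, adjusted p = 0.0396, lost without untreated mouse 1, 2 or 3 or treated mouse 2 or 3 at adjusted p from 0.0534 to 0.182), while Tgfb1 and Pdgfrb were at -0.20 and 0.03.

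Of the other genes of hyaluronan, 13 were tested, of which 2 were higher and 1 lower, with a median of 0.02. Hmmr (ENSMUSG00000020330, chromosome 11, 40592167 to 40624288, minus strand), which binds hyaluronan and is also a protein of the mitotic spindle, was at 1.17, 1.56 and 1.32 CPM in the siHAS2-LNP mice and at 17.1, 16.6, 14.4 and 15.2 CPM in the CCl4 + siHAS2-LNP mice. It rose by 3.55 ± 0.47 (SE) on the log2 scale (adjusted p = 1.49e-05), with the treated mice close together. Cd44, the main hyaluronan receptor of leukocytes and mesenchymal cells, was at 17.9, 19.9 and 17.9 CPM in the siHAS2-LNP mice and at 13.6, 18.5, 14.7 and 14.6 CPM in the CCl4 + siHAS2-LNP mice, the ranges overlapping (log2 fold change -0.28 ± 0.25 SE, adjusted p = 0.522). Stab1, a scavenger receptor of sinusoidal cells and macrophages, was at 12.8, 9.95 and 13.3 CPM without CCl4 and 29.8, 24.3, 34.2 and 20.03 CPM with it. It rose by 1.18 ± 0.23 (SE) on the log2 scale (adjusted p = 0.00099). Stab2 and Lyve1, the receptors that clear hyaluronan from blood, did not pass (-0.36 and 0.83), nor did the hyaluronidase genes Hyal1 and Hyal2 (0.02 and -0.36). Itih1, a heavy chain that is linked to hyaluronan (log2 fold change -0.56 ± 0.15 SE, adjusted p = 0.0117), lost its call without untreated mouse 2 (adjusted p = 0.053). Cemip, another enzyme of hyaluronan breakdown, was not compared, with 0 counts without CCl4 and 1, 1, 1 and 2 with it.

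Markers of Kupffer cells, the macrophages that settle the liver before birth, fell. Of 11 tested, 8 were lower and 0 higher, all 11 had a negative log2 fold change, and the median was -1.57. Their summed level was 677, 644 and 581 CPM without CCl4 and 247, 290.3, 268 and 281 CPM with it, without overlap. Clec4f (ENSMUSG00000014542, chromosome 6, 83621524 to 83633169, minus strand), a lectin found in mouse on Kupffer cells, was at 136, 131 and 116 CPM in the siHAS2-LNP mice and at 20.4, 33.7, 27.9 and 36.6 CPM in the CCl4 + siHAS2-LNP mice. All treated mice lay far below all untreated ones, and Clec4f fell by 2.12 ± 0.29 (SE) on the log2 scale (adjusted p = 2.35e-05). Timd4, a receptor for dying cells, was at 12.5, 12.1 and 10.9 CPM without CCl4 and 1.53, 2.49, 3.21 and 2.003 CPM with it. It fell by 2.34 ± 0.30 (SE) on the log2 scale (adjusted p = 8.77e-06). Vsig4 fell by 1.57 ± 0.36 (SE) on the log2 scale (adjusted p = 0.00452), Cd5l, a secreted protein of macrophages, fell by 1.38 ± 0.28 (SE) on the log2 scale (adjusted p = 0.00141) and Slc40a1, the iron exporter ferroportin, fell by 0.86 ± 0.18 (SE) on the log2 scale (adjusted p = 0.00261). Folr2 (log2 fold change -1.81 ± 0.55 SE, adjusted p = 0.0315) was lost without untreated mouse 1, 2 or 3 or treated mouse 2 or 3 (adjusted p from 0.0539 to 0.122) and Cd163 (log2 fold change -1.57 ± 0.47 SE, adjusted p = 0.0274) without untreated mouse 1 or 2 or treated mouse 3 or 4 (adjusted p from 0.0526 to 0.137). Between 5 and 7 lower calls were left with single mice left out, the 5 without untreated mouse 1. C6, counted among the 8, stands in this list and in that of complement.

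Genes of scar-associated macrophages, a state that takes up lipid and debris, were higher. Of 15 tested, 8 were higher and 1 lower, with a median of 1.12 and a summed level of 2502 to 2652 CPM without CCl4 and 3069 to 3402 CPM with it, and the 8 higher calls held with each mouse left out. Mmp12 and Lgals3, counted among the 8, stand also in the lists of matrix proteases and of galectins. Gpnmb (ENSMUSG00000029816, chromosome 6, 49013426 to 49047863, plus strand), a glycoprotein of lysosomes, was at 0.808, 0.519 and 1.26 CPM in the siHAS2-LNP mice and at 79.8, 89.3, 30.3 and 25.2 CPM in the CCl4 + siHAS2-LNP mice. Treated mice 1 and 2 were higher than mice 3 and 4, all 4 were far above the untreated ones, and it rose by 6.06 ± 0.69 (SE) on the log2 scale (adjusted p = 1.59e-06). Trem2, a lipid receptor of such macrophages, was at 1.86, 1.74 and 1.20 CPM in the siHAS2-LNP mice and at 14.9, 15.1, 7.31 and 7.48 CPM in the CCl4 + siHAS2-LNP mice. It rose by 2.80 ± 0.35 (SE) on the log2 scale (adjusted p = 5.41e-06). Cd63, of lysosomes, was at 1.90, 2.36 and 1.85 CPM without CCl4 and 18.3, 11.9, 10.4 and 10.7 CPM with it. It rose by 2.66 ± 0.40 (SE) on the log2 scale (adjusted p = 6.87e-05). Lpl, lipoprotein lipase, rose by 2.03 ± 0.46 (SE) on the log2 scale (adjusted p = 0.00439), and Itgax, the integrin CD11c, rose by 1.93 ± 0.44 (SE) on the log2 scale (adjusted p = 0.00408). The lysosomal proteases Ctsb, Ctsd and Ctss did not pass (0.07, 0.08 and -0.30). Atp6v0d2, the lower call (log2 fold change -1.03 ± 0.34 SE, adjusted p = 0.0456), was lost without untreated mouse 1 or 2 or treated mouse 1, 2, 3 or 4 (adjusted p from 0.0606 to 0.309).

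In the list of infiltrating monocytes and macrophages, 4 of 15 were lower and 2 higher, with a median of -0.15 and a summed level of 438 to 542 CPM without CCl4 and 225 to 329 CPM with it. The lower genes were H2-Aa, H2-Ab1 and Cd74, which build and load MHC class II, and Csf1r, the receptor that macrophages need to survive. H2-Aa was at 38.6, 61.3 and 54.5 CPM in the siHAS2-LNP mice and at 12.6, 17.7, 13.8 and 14.2 CPM in the CCl4 + siHAS2-LNP mice, each treated mouse below each untreated one, and fell by 1.82 ± 0.37 (SE) on the log2 scale (adjusted p = 0.0015). Cd74 was at 108, 150.1 and 161 CPM without CCl4 and 37.5, 46.3, 35.9 and 41.8 CPM with it. It fell by 1.79 ± 0.38 (SE) on the log2 scale (adjusted p = 0.00215), H2-Ab1 fell by 1.76 ± 0.39 (SE) on the log2 scale (adjusted p = 0.00334), and Csf1r fell by 1.16 ± 0.23 (SE) on the log2 scale (adjusted p = 0.00157). All 4 kept the call with each mouse left out. Chil3, of alternatively activated macrophages (log2 fold change 2.57 ± 0.77 SE, adjusted p = 0.0276), was lost without untreated mouse 1 or 3 or treated mouse 1 (adjusted p from 0.103 to 0.147), and Ms4a7 (log2 fold change 1.13 ± 0.34 SE, adjusted p = 0.0285) without untreated mouse 1, 2 or 3 or treated mouse 1, 2 or 3 (adjusted p from 0.0522 to 0.116). Ly6c2 and Ccr2, which mark fresh monocytes, did not pass (0.58 and 0.17). Since these genes mark several cell types, B and dendritic cell markers are given beside them. Of 8 of the former 2 were lower (median -0.71, summed level 37.1 to 39.4 CPM without CCl4 and 14.2 to 26.1 CPM with it), the calls being Igkc (log2 fold change -0.97 ± 0.27 SE, adjusted p = 0.0165, lost without untreated mouse 3 or treated mouse 2 at adjusted p from 0.063 to 0.0647) and Jchain (log2 fold change -0.87 ± 0.28 SE, adjusted p = 0.0427, lost without untreated mouse 1 or 2 or treated mouse 1, 2 or 4 at adjusted p from 0.0752 to 0.206), and of 5 of the latter 1 was lower, Batf3 (log2 fold change -1.21 ± 0.37 SE, adjusted p = 0.0291, lost without untreated mouse 1 or 2 or treated mouse 1 or 3 at adjusted p from 0.0583 to 0.144), and their part in the fall was not tested. The defining B cell gene Ms4a1 had a log2 fold change of 0.53 without passing, and the dendritic cell genes Flt3 and Cd209a were below the level compared.

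Chemokine genes gave 3 lower and 1 higher of 20, with a median of -0.27. Ccl24, an eosinophil attractant that Kupffer cells make, was at 7.11, 10.5 and 7.59 CPM without CCl4 and 1.49, 2.29, 2.57 and 1.47 CPM with it. It fell by 2.07 ± 0.29 (SE) on the log2 scale (adjusted p = 3.38e-05). Cxcl9, induced by interferon gamma, was at 22.3, 27.9 and 28.0 CPM without CCl4 and 4.11, 7.62, 6.18 and 8.68 CPM with it. It fell by 2.003 ± 0.38 (SE) on the log2 scale (adjusted p = 0.000802), and Cxcl10 (log2 fold change -1.62 ± 0.44 SE, adjusted p = 0.0167) was lost without untreated mouse 1 or 2 or treated mouse 3 (adjusted p from 0.0531 to 0.0608). Cxcl14 was the higher one, at 0.525, 0.330 and 0.120 CPM without CCl4 and 3.21, 3.42, 2.01 and 3.34 CPM with it, and rose by 3.10 ± 0.65 (SE) on the log2 scale (adjusted p = 0.00207). Ccl2, which draws monocytes, was at 0.727, 0.849 and 0.897 CPM in the siHAS2-LNP mice and at 0.900, 0.195, 0.803 and 0.534 CPM in the CCl4 + siHAS2-LNP mice, overlapping (log2 fold change -0.38 ± 0.61 SE, adjusted p = 0.735). Of 25 interferon-stimulated genes, 2 were higher and 1 lower (median 0.30), Usp18 (log2 fold change 1.05 ± 0.26 SE, adjusted p = 0.00937, lost without untreated mouse 2 at adjusted p = 0.053), Oas1a (log2 fold change 0.80 ± 0.22 SE, adjusted p = 0.0154, lost without untreated mouse 1 or 3 or treated mouse 2 at adjusted p from 0.0568 to 0.0713) and, lower, Gbp2 (log2 fold change -0.76 ± 0.24 SE, adjusted p = 0.0341, lost without untreated mouse 1 or 2 or treated mouse 1, 2, 3 or 4 at adjusted p from 0.0522 to 0.126). None of the 10 neutrophil markers passed (median -0.65). Of 10 T and NK cell markers 2 were lower (median -0.63), Gzma (log2 fold change -1.37 ± 0.36 SE, adjusted p = 0.0142, lost without untreated mouse 2 or treated mouse 3 at adjusted p from 0.0582 to 0.0823) and Il2rb (log2 fold change -0.88 ± 0.30 SE, adjusted p = 0.049, lost without untreated mouse 1, 2 or 3 or treated mouse 1, 3 or 4 at adjusted p from 0.0597 to 0.24).

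Annexins, S100 proteins and galectins were higher in 6 of 14 tested, with 0 lower and a median of 0.89, and these 6 calls held with each mouse left out. S100a6, a calcium-binding protein of spreading and dividing cells, was at 1.41, 3.11 and 2.21 CPM in the siHAS2-LNP mice and at 62.5, 20.02, 13.2 and 8.01 CPM in the CCl4 + siHAS2-LNP mice. Treated mice were all higher, and it rose by 3.56 ± 0.57 (SE) on the log2 scale (adjusted p = 0.000154). S100a11 rose by 2.85 ± 0.35 (SE) on the log2 scale (adjusted p = 5.41e-06), and Anxa2, which binds membranes and plasminogen activator, was at 15.4, 15.6 and 17.6 CPM without CCl4 and 131, 101, 71.3 and 71.0 CPM with it. It rose by 2.53 ± 0.28 (SE) on the log2 scale (adjusted p = 9.83e-07). Lgals1, galectin 1, rose by 2.02 ± 0.26 (SE) on the log2 scale (adjusted p = 8.77e-06), and Lgals3, galectin 3 of macrophages, rose by 1.37 ± 0.34 (SE) on the log2 scale (adjusted p = 0.00841). In whole liver the cells they came from cannot be told apart.

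Genes of cholesterol synthesis were lower in a way that rested on single mice. Of 22 genes, 9 were lower and 0 higher, with a median of -1.40, 21 of 22 negative. The summed level was 5302, 7649 and 3586 CPM without CCl4 and 1035, 2406, 1833 and 4064 CPM with it, so that treated mouse 4 was above untreated mouse 3. Hmgcs1 (ENSMUSG00000093930, chromosome 13, 120151915 to 120170470, plus strand), which makes the precursor of mevalonate, was at 909, 2635 and 438 CPM in the siHAS2-LNP mice and at 39.3, 214, 202 and 491 CPM in the CCl4 + siHAS2-LNP mice. Its groups overlapped (log2 fold change -2.49 ± 0.73 SE, adjusted p = 0.0253), and the call was lost without untreated mouse 2 or treated mouse 1, 2 or 3 (adjusted p from 0.056 to 0.244). Msmo1, a sterol methyl oxidase, was at 369, 590.0 and 209 CPM without CCl4 and 17.2, 72.5, 62.9 and 138 CPM with it (log2 fold change -2.43 ± 0.60 SE, adjusted p = 0.00798) and was lost without untreated mouse 2 (adjusted p = 0.0555). Cyp51, a sterol demethylase (log2 fold change -2.14 ± 0.65 SE, adjusted p = 0.0299), was lost without untreated mouse 1 or 2 or treated mouse 1, 2 or 3 (adjusted p from 0.0594 to 0.15). Mvk, mevalonate kinase (log2 fold change -1.35 ± 0.33 SE, adjusted p = 0.00791), was lost without untreated mouse 2 (adjusted p = 0.0609). Sqle, squalene epoxidase, did not pass (-1.72). Without untreated mouse 2 no gene of the list was called, without untreated mouse 1 or treated mouse 1, 2 or 3 there were 4, 4, 5 and 3, and without treated mouse 4 there were 16. Limma-voom, which gives less weight to mice that deviate, called 16. Sterol genes are driven by SREBP2 through the SRE. The letters TCACCCCAC were in 1 of the 14 matched promoters (7.14%), that of Hmgcs1, and in 0.71% of all matched, and CCAAT in 14 of the 14. That of Hmgcs1 is shown, from 250 bases before to 20 after the start in GRCm38.p6, with the SRE and 4 CCAAT boxes, all on the opposite strand as ATTGG, in capitals.
Hmgcs1, chr13:119690101-119690370, plus strand: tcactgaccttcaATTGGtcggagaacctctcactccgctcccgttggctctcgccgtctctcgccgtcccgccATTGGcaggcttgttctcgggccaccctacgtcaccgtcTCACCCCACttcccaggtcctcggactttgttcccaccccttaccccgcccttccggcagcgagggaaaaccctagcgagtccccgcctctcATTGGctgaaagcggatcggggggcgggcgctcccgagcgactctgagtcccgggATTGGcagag

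**Figure D4:**
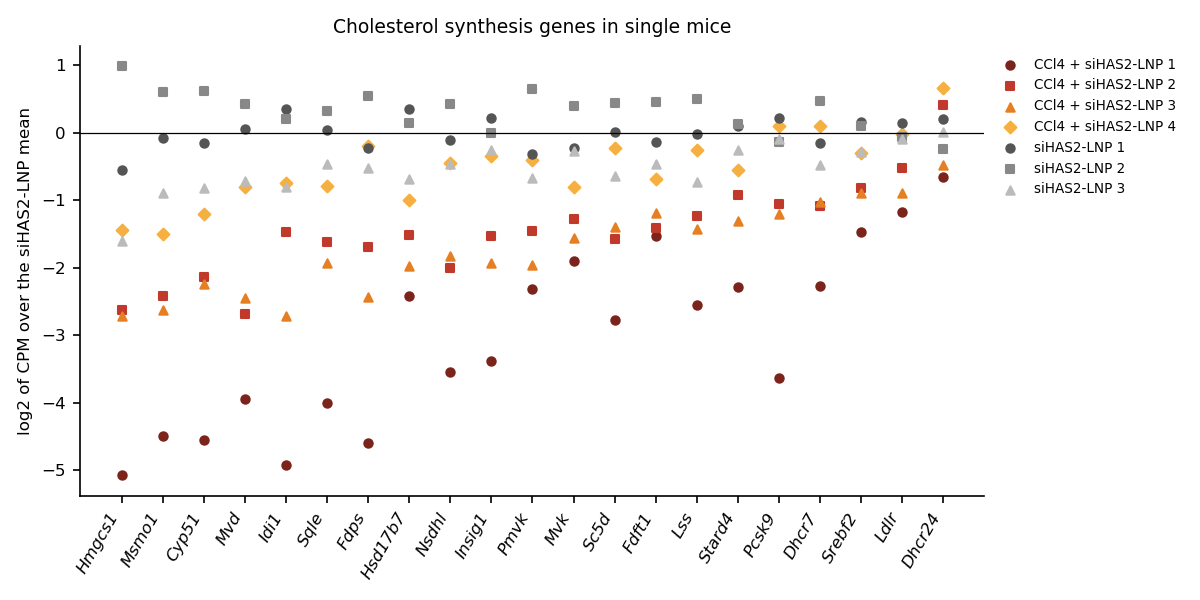
Log2 of the level of 21 cholesterol synthesis genes in each of the 7 mice over the mean of the siHAS2-LNP mice (vertical axis), with the genes along the horizontal axis. CCl4 + siHAS2-LNP mouse 1 (dark red circles) is lowest for most genes and mouse 4 (yellow diamonds) lies within the range of the untreated mice (grey) for many of them.

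Of 13 lipogenesis genes, 2 were lower (median -0.38), 1 without untreated mouse 3 and 4 without treated mouse 4. Elovl3, an elongase of fatty acids, was at 3.43, 6.98 and 1.79 CPM in the siHAS2-LNP mice and at 0.274, 0.0977, 0.120 and 0.401 CPM in the CCl4 + siHAS2-LNP mice. It fell by 4.34 ± 0.75 (SE) on the log2 scale (adjusted p = 0.000358). Thrsp was at 233, 162 and 647 CPM without CCl4 and 33.3, 19.3, 18.9 and 94.5 CPM with it (log2 fold change -3.08 ± 0.80 SE, adjusted p = 0.0113) and was lost without untreated mouse 3 (adjusted p = 0.0914). Fasn, fatty acid synthase, was at 549, 438 and 1019 CPM without CCl4 and 41.2, 102, 85.7 and 479 CPM with it, with treated mouse 4 above untreated mouse 2 (log2 fold change -1.92 ± 0.81 SE, adjusted p = 0.121). Targets of PPAR-alpha gave 1 lower call of 17, Cyp4a10 (log2 fold change -1.94 ± 0.62 SE, adjusted p = 0.0399, lost without untreated mouse 1 or 3 or treated mouse 2, 3 or 4 at adjusted p from 0.0546 to 0.335), with a median of -0.13. No core clock gene of 15 passed, with a median of 0.05.

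Of 14 sinusoidal endothelium markers 1 was higher, Stab1 (median 0.26), and of 7 other endothelium markers 1, Cd34 (log2 fold change 1.57 ± 0.46 SE, adjusted p = 0.0253, lost without untreated mouse 1 or 3 or treated mouse 2 or 4 at adjusted p from 0.0533 to 0.11), which portal fibroblasts also carry. Of 8 ductal epithelium markers 2 were higher, with a median of 1.04 and a summed level of 18.4 to 20.2 CPM without CCl4 and 30.9 to 49.2 CPM with it. Sox9 was among them (log2 fold change 1.64 ± 0.48 SE, adjusted p = 0.0255, lost without untreated mouse 1 or 3 or treated mouse 3 at adjusted p from 0.0882 to 0.117), while Krt19 and Epcam, which define the ducts, did not pass (1.06 and 1.02). Of 10 markers of portal fibroblasts and mesothelium 2 were higher (median 0.77), Cd34 and Wt1 (log2 fold change 2.09 ± 0.61 SE, adjusted p = 0.0247, lost without untreated mouse 2 or 3 or treated mouse 3 at adjusted p from 0.102 to 0.118). None of 6 red blood cell genes passed (median -1.40, summed level 544 to 639 CPM without CCl4 and 72.6 to 301 CPM with it). Pancreatic enzyme genes Prss1 and Pnlip and the fat cell genes Adipoq and Plin1 were at 0 counts in all 7 livers. Of other pancreatic genes, Prss2, Cela2a and Cpa1 had 1 count each in treated mouse 3 and Ctrb1 had 1 in treated mouse 1. Of 4 tested genes of tissue that could be carried over 1 was higher, Fabp2 (log2 fold change 0.93 ± 0.28 SE, adjusted p = 0.0271, lost without untreated mouse 1, 2 or 3 or treated mouse 1 or 3 at adjusted p from 0.0595 to 0.132).

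Next to these mice stand 2 further pairs of groups with CCl4 and without, one given siLuc-LNP and one given no particle. The 3 pairs share no mice, though 1 fit gave their spread. In siLuc-LNP mice 3418 genes passed (24.2%), 1841 higher and 1577 lower. In mice given no particle it was 4805 (34.0%), 2537 higher and 2268 lower. Without CCl4 mouse 2 it was 2145. Of the 1812 genes of the siHAS2-LNP mice, 1184 (65.3%) passed in the same direction in siLuc-LNP mice, which is 34.6% of the calls there, and 4 in the opposite one. With no particle also 1184 (65.3%) did, or 24.6% of the calls there, with 47 in the opposite direction. All 3 pairs shared 1042 (57.5%) with the same direction. With the 2 groups of each pair fitted alone, 2329 genes passed with siHAS2-LNP and 1504 with siLuc-LNP, and under limma-voom with sample quality weights 3455 and 2927, so the order of these 2 counts turned under both.

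The CCl4 effect differed between siHAS2-LNP and siLuc-LNP mice for 5 genes (0.0354%), with 1612 at an unadjusted p under 0.05. DESeq2 gave 67, limma-voom 0, and leaving out single mice 0 to 26. It was 25 without treated mouse 1, 26 without CCl4 + siLuc-LNP mouse 3, 9 without siLuc-LNP mouse 2, 7 without CCl4 + siLuc-LNP mouse 2, 1 without untreated mouse 1 or CCl4 + siLuc-LNP mouse 4, and 0 without any other mouse of the 4 groups. CCl4 changed Smpdl3b, a phosphodiesterase of sphingolipids, by 1.58 with siHAS2-LNP and 3.74 with siLuc-LNP, a difference of -2.16 ± 0.37 SE, adjusted p = 0.0422. For Cyb561, a cytochrome of vesicle membranes, the values were 0.59 and 2.77 (difference -2.18 ± 0.41 SE, adjusted p = 0.0482), and for Slc17a8, a glutamate transporter, 0.48 and -1.84 (difference 2.32 ± 0.42 SE, adjusted p = 0.0422). Without CCl4, Cyb561 was at 4.96 CPM with siHAS2-LNP and 1.58 CPM with siLuc-LNP, and Slc17a8 at 9.18 and 23.1 CPM. With CCl4 they were at 7.59 and 10.8 CPM and at 12.9 and 6.44 CPM. For these genes the means of the groups without CCl4 thus differed as well, though no test compared those groups. The siLuc-LNP mean of Slc17a8 had an SD of 12.1 CPM (n = 3). Smpdl3b was at 1.23 and 0.712 CPM without CCl4 and at 3.62 and 9.69 CPM with it. The noncoding genes AI480526 (1.83 ± 0.33 SE, adjusted p = 0.0422) and Gm15635 (2.97 ± 0.55 SE, adjusted p = 0.0482) made up the 5. None of the 5 was in a list described above. CCl4 moved Glul by -4.11, Cyp3a16 by -9.56, Ccnb2 by 5.83, Col1a1 by 3.89, Clec4f by -1.30 and Msmo1 by -0.53 on the log2 scale in siLuc-LNP mice, and the differences had adjusted p of 0.935, 0.978, 0.285, 0.688, 0.457 and 0.386. For Glul the difference was 0.11 ± 0.30 SE, adjusted p = 0.935, and for Col1a1 it was -0.85 ± 0.70 SE, adjusted p = 0.688. A p that misses the threshold does not show that the 2 particles gave the same response.

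**Figure D5:**
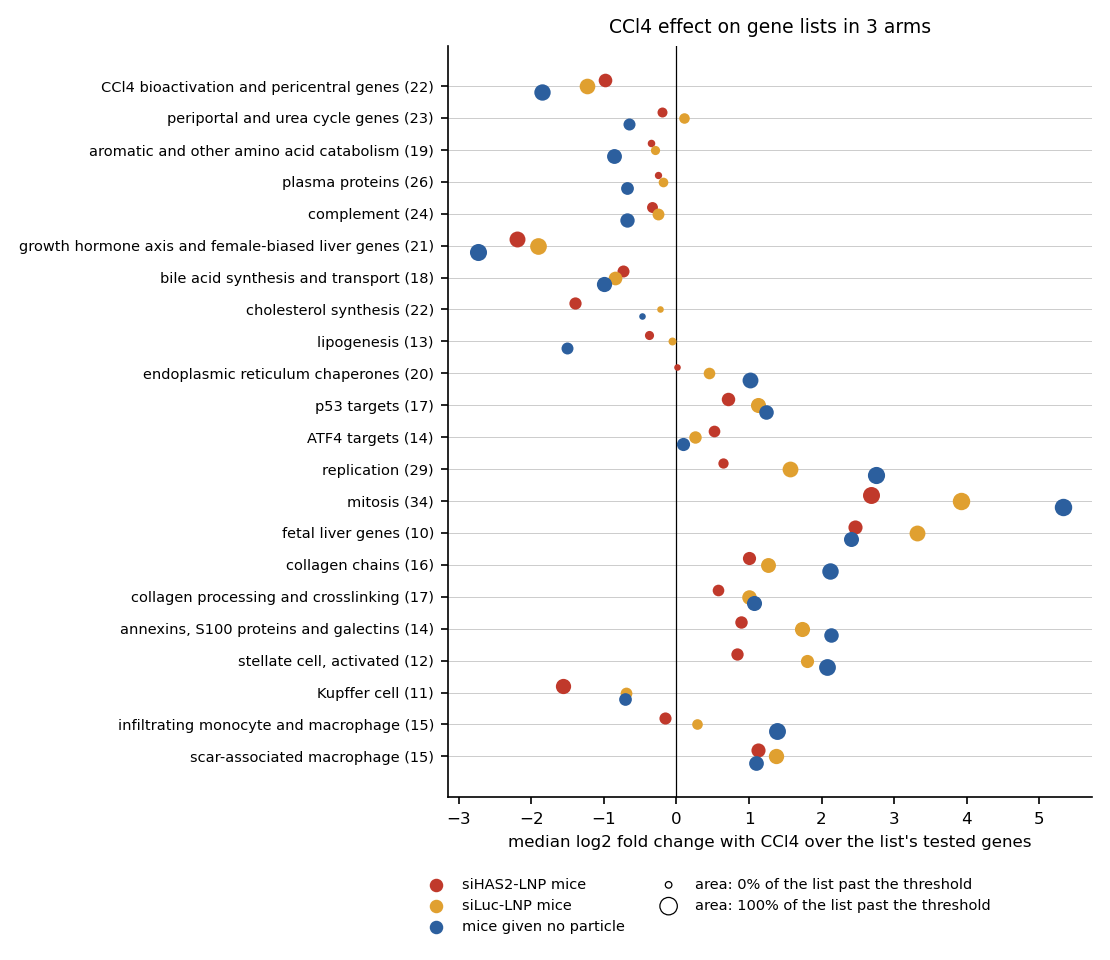
Median log2 fold change with CCl4 (horizontal axis) over the tested genes of 22 lists, number of genes in brackets, in siHAS2-LNP mice (red), siLuc-LNP mice (yellow) and mice given no particle (blue). The area of a point grows with the share of the list past the threshold in that pair, and mitosis stands at 2.68, 3.93 and 5.33 in the 3 pairs, while Kupffer cell markers stand at -1.57, -0.70 and -0.71.

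Against mice given no particle, 470 genes (3.33%) had a higher log2 fold change in siHAS2-LNP mice and 433 (3.07%) a lower one. This rests on 1 of only 2 CCl4 mice without particle. Without CCl4 mouse 2 it was 33 genes, 26 higher and 7 lower, and without CCl4 mouse 1 it was 1156. In the mitosis list 27 genes had a lower value (0 without CCl4 mouse 2), in the replication list 22 (1), in the collagen list 6 (0), among markers of infiltrating monocytes and macrophages 6 of 15 (0) and among chaperones of the endoplasmic reticulum 5 (0). In the list of CCl4 bioactivation and pericentral genes 5 of 22 had a higher value (0 without CCl4 mouse 2) and 0 a lower one. Mki67 was at 3.97 ± 1.49 CPM (SD, n = 4) in control mice and 156 ± 75.8 CPM (SD, n = 2) in CCl4 mice, and the difference was -2.58 ± 0.60 SE, adjusted p = 0.0143. In siHAS2-LNP mice Mki67 was at 10.5 ± 1.87 CPM (SD, n = 3), above the control mean, so the groups without CCl4 entered this difference too. No test compared those groups. The summed mitosis level was 961 and 1829.5 CPM in CCl4 mice 1 and 2, so that both lay above the 4 CCl4 + siHAS2-LNP mice. Without CCl4 this level was 108, 133 and 115 CPM in siHAS2-LNP mice. Control mice were lower, at 74.0, 72.1, 78.7 and 76.8 CPM. Cdc6, which loads the replicative helicase, changed by 1.03 and 6.20 in the 2 settings (difference -5.17 ± 1.20 SE, adjusted p = 0.0141), and Fanci, of DNA crosslink repair, by 2.14 and 7.38 (-5.24 ± 1.26 SE, adjusted p = 0.0162). Exo1 and Dscc1, of replication and repair, had differences of -4.75 and -4.68, and Sprr1a one of -5.02. Fanci, Exo1, Dscc1 and Sprr1a had at most 3 counts in each control mouse (means 0.0336, 0.0463, 0.0616 and 0.0631 CPM). Their changes without particle and their differences are therefore not exact sizes.

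The log2 fold change of Cyp2e1 was -1.91 in siHAS2-LNP mice against -4.17 in mice given no particle (difference 2.26 ± 0.56 SE, adjusted p = 0.0178). Cyp7a1 changed by 0.06 against -3.18 (difference 3.24 ± 0.78 SE, adjusted p = 0.0163) and Cd44 by -0.28 against 1.63 (difference -1.90 ± 0.38 SE, adjusted p = 0.00678). The difference of Col1a1 was -2.45 ± 0.74 SE, adjusted p = 0.0463, that of Hmmr -2.69 ± 0.70 SE, adjusted p = 0.0238 and that of Trem2 -2.52 ± 0.54 SE, adjusted p = 0.00911. Without CCl4, mean Cd44 was 18.6 CPM in siHAS2-LNP and 8.74 CPM in control mice. Col1a1 was at 7.45 and 4.70 CPM in these groups, and Hmmr at 1.35 and 0.497 CPM. The groups without CCl4 thus entered the differences of Cd44, Col1a1 and Hmmr too, though no test compared those groups. Glul and Acta2 did not pass (-0.26 ± 0.32 SE, adjusted p = 0.672 and -2.37 ± 1.35 SE, adjusted p = 0.304), nor did Timp1, at 0.04 (adjusted p = 0.956). Of genes with a higher value in siHAS2-LNP mice, Hamp, which makes hepcidin, differed by 3.81 ± 1.000 SE, adjusted p = 0.025, Plin4, of lipid droplets, by 3.57 ± 0.90 SE, adjusted p = 0.02 and Snhg11, a noncoding RNA, by 4.76 ± 1.18 SE, adjusted p = 0.0184. Hamp was at 95.1 CPM in siHAS2-LNP and 496 CPM in control mice, so the means without CCl4 differed as well, which was not tested. With CCl4 its means were 118 and 44.2 CPM, the treated mice being at 319, 65.9, 58.2 and 29.2 CPM. Snhg11 had at most 3 counts in each CCl4 mouse without particle (mean 0.0243 CPM), so its difference is not an exact size. Tmem278 changed by 1.07 against -2.83 (difference 3.90 ± 0.59 SE, adjusted p = 0.00176) and Iqcn by 2.46 against -1.36 (difference 3.82 ± 0.87 SE, adjusted p = 0.0126). Of the 5 genes that differed from siLuc-LNP mice, AI480526 differed here by 3.67 ± 0.39 SE, adjusted p = 1.6e-05, Gm15635 by 2.94 ± 0.59 SE, adjusted p = 0.00729, Smpdl3b by -1.74 ± 0.38 SE, adjusted p = 0.0102 and Slc17a8 by 1.47 (adjusted p = 0.0499995, at the very edge of the threshold), while Cyb561 did not pass (-1.11 ± 0.41 SE, adjusted p = 0.1). Of these 21 called differences 2 passed without CCl4 mouse 2, those of AI480526 (adjusted p = 0.00175) and Tmem278 (adjusted p = 0.0431), and the other 19 did not (adjusted p from 0.055 to 0.259).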

How the data were processed

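PolyA RNA of 27 whole livers was sequenced in paired ends from strand-marking libraries. The authors deposited raw counts of read pairs per gene, made, per their methods, with Trimmomatic 0.39, HISAT2 (version not given in the sources used here) and featureCounts against GRCm39 with Ensembl 105. Multimapping pairs were not counted, so that close copies of a gene are undercounted, and the strand setting is not given in the sources used here.

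The 14114 of 55414 genes whose counts averaged 10 or more over the 27 libraries entered 1 fit of the 8 groups with no covariate (edgeR 4.0.16, R 4.3.3, TMM scaling, quasi-likelihood test, Benjamini-Hochberg threshold 0.05). CPM is the count per 1000000 of the TMM-scaled total of those genes. SE is the size of the log2 fold change over the root of F. DESeq2 1.42.0, limma 3.58.1, other filters, a replicate block and leaving out each mouse were alternatives, and the list counts under them were added after seeing the data. Names and positions came from GENCODE vM39, which matched 54749 genes. The tests were tested on simulated data, in which 100 genes were changed by 1 and 100 by 2 on the log2 scale. In the siHAS2-LNP pair edgeR found 55 and 90 of them, and in the difference against siLuc-LNP 23 and 77.

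The groups compared, the gene lists and the motifs were chosen with earlier results of these data known. Named were the 8 genes of largest rise and of largest fall among those called that have a symbol, are not predicted genes, do not overlap between the groups and reach a mean of 1 CPM, 18 genes tied to hyaluronan, CCl4 and liver cell types, up to 4 called members per list and direction, and the 5 largest differences each way. Further members were chosen after their values were seen. Some list members are not reported here.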

Additional observations from a re-analysis of the deposited data

Results flagged for a closer look

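In 21 of the 251 genes described, 1 of the 4 CCl4 + siHAS2-LNP mice lay far from the other 3, its distance to the nearest being past Dixon's limit, as a share of the group's range, for 4 values. By chance about 1 in 20 genes would do so. The mouse was mouse 1 in 11 of them, mouse 2 in 2, mouse 3 in 1 and mouse 4 in 7. Mouse 1 stood above the others for Arg1 (1361 CPM, the nearest 1111), Hamp (319 CPM, the nearest 65.9), Hp (8049 CPM, the nearest 4984), Hrg (1262 CPM, the nearest 866), Hyal2 (51.9 CPM, the nearest 38.6), Mcm2 (14.4 CPM, the nearest 8.28), Sult2a1 (198 CPM, the nearest 135), Trib3 (29.8 CPM, the nearest 8.15) and Uhrf1 (9.55 CPM, the nearest 5.61) and stood below the others for Batf3 (0.391 CPM, the nearest 0.642) and Tmem278 (1.10 CPM, the nearest 2.25). Mouse 4 stood above the others for Cyp2c69 (4.81 CPM, the nearest 1.37), Cyp3a16 (1.20 CPM, the nearest 0.201), Cyp3a41b (0.134 CPM, the nearest 0), Fasn (479 CPM, the nearest 102) and Krt19 (2.80 CPM, the nearest 1.03) and stood below the others for Des (2.67 CPM, the nearest 4.38) and Ms4a1 (0 CPM, the nearest 0.509). The value of Cyp3a41b is 1 count against 0 in the other treated mice, which is within counting error. A count of 0 for Ms4a1 allows 0.401 CPM in mouse 4, the shallowest library. Mouse 2 stood above the others for Gzma (1.07 CPM, the nearest 0.442) and Mmp12 (27.5 CPM, the nearest 8.65). Mouse 3 stood below the others for Cxcl14 (2.01 CPM, the nearest 3.21).

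The response to CCl4 differed between siHAS2-LNP and siLuc-LNP mice, by the test of the difference itself (edgeR, adjusted by Benjamini-Hochberg), for AI480526 (1.83 on the log2 scale, adjusted p = 0.0422), Cyb561 (-2.18 on the log2 scale, adjusted p = 0.0482), Gm15635 (2.97 on the log2 scale, adjusted p = 0.0482), Slc17a8 (2.32 on the log2 scale, adjusted p = 0.0422) and Smpdl3b (-2.16 on the log2 scale, adjusted p = 0.0422). A positive value means a higher log2 fold change with siHAS2-LNP. Such a difference can lie in the groups without CCl4 too, as the mean levels given above show for Cyb561, Slc17a8, Cd44, Col1a1, Hamp, Hmmr and Mki67. Of the differences against no particle, those of Dscc1, Exo1, Fanci, Snhg11 and Sprr1a involve a group with at most 3 counts per mouse. Against mice given no particle the same test gave differences for AI480526 (3.67, adjusted p = 1.6e-05), Cd44 (-1.90, adjusted p = 0.00678), Cdc6 (-5.17, adjusted p = 0.0141), Col1a1 (-2.45, adjusted p = 0.0463), Cyp2e1 (2.26, adjusted p = 0.0178), Cyp7a1 (3.24, adjusted p = 0.0163), Dscc1 (-4.68, adjusted p = 0.0271), Exo1 (-4.75, adjusted p = 0.0118), Fanci (-5.24, adjusted p = 0.0162), Gm15635 (2.94, adjusted p = 0.00729), Hamp (3.81, adjusted p = 0.025), Hmmr (-2.69, adjusted p = 0.0238), Iqcn (3.82, adjusted p = 0.0126), Mki67 (-2.58, adjusted p = 0.0143), Plin4 (3.57, adjusted p = 0.02), Slc17a8 (1.47, adjusted p = 0.0499995), Smpdl3b (-1.74, adjusted p = 0.0102), Snhg11 (4.76, adjusted p = 0.0184), Sprr1a (-5.02, adjusted p = 0.0169), Tmem278 (3.90, adjusted p = 0.00176) and Trem2 (-2.52, adjusted p = 0.00911). These rest on 2 CCl4 mice without particle, and without CCl4 mouse 2 2 of the 21 passed, AI480526 (adjusted p = 0.00175) and Tmem278 (adjusted p = 0.0431), the other 19 being at adjusted p from 0.055 to 0.259.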

How the results depend on the processing

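The count of genes past the threshold in the siHAS2-LNP pair was 1812 and stayed within 1.5 times of that under DESeq2 (2190), DESeq2 size factors (1818), no filter (1966), edgeR's filter (1899), the compared groups fitted alone (2329) and the replicate block (1538). It was 3455 under limma-voom with sample quality weights and 957 when a log2 change of 1 or more in size was also asked for. Replicate numbers do not pair the mice, same-numbered mice of the 2 groups having correlations of -0.167, -0.0691 and -0.147 between their deviations. Leaving out single mice gave 1036 to 1773 genes, in the siLuc-LNP pair 2396 to 3707 and with no particle 2145 to 4468. That demand left 1644 genes in the siLuc-LNP pair and 2636 with no particle, and the siLuc-LNP groups fitted alone gave 1504. The difference between siHAS2-LNP and siLuc-LNP, with 5 genes, gave 67 under DESeq2, 0 under limma-voom, 304 with no filter, 0 with the compared groups alone, 2 with the replicate block and 0 to 26 with single mice left out. That between siHAS2-LNP and no particle, with 903, gave 33 to 1156 with single mice left out. Of the 251 genes described, 172 were called, 67 lost the call under at least 1 alternative, the others keeping it under every alternative run, and 0 of the called ones changed direction. All 5 called differences described against siLuc-LNP were lost under at least 1, as were 19 of the 21 against no particle, while AI480526 and Tmem278 kept theirs under every alternative run. Genes not past the threshold did change sign, and the cause was not tested. Their log2 fold changes with single mice left out ran for Ass1 from -0.01 to 0.25, Ccn1 from -0.14 to 0.07, Ctsd from -0.03 to 0.21, Cyp17a1 from -0.65 to 0.24, Cyp7a1 from -0.28 to 0.27, Ddit3 from -0.29 to 0.10, Fga from -0.11 to 0.03, Fn1 from -0.01 to 0.32, Fos from -0.59 to 0.18, Gclc from -0.00 to 0.24, Hamp from -0.89 to 0.83, Hp from -0.28 to 0.32, Hspa5 from -0.07 to 0.09, Hyal1 from -0.09 to 0.13, Lrat from -0.13 to 0.22, Myc from -0.08 to 0.30, Pdgfrb from -0.07 to 0.12 and Tbx3 from -0.21 to 0.11. They were with the replicate block -0.02 for Cyp7a1 and 0.00 for Hp, under limma-voom -0.32 for Hamp, 0.03 for Hspa5 and -0.00 for Pdgfrb, under DESeq2 -0.01 for Hyal1, with no filter -0.02 for Hyal1 and -0.00 for Pdgfrb, with edgeR's filter -0.01 for Hyal1 and -0.00 for Pdgfrb and with the compared groups fitted alone -0.00 for Hyal1. Against siLuc-LNP the difference ran for Cyp3a16 from -0.68 to 0.93 and Glul from -0.14 to 0.21 with single mice left out, and against no particle for Timp1 from -0.35 to 0.83, with values under limma-voom -0.21 for Timp1, with edgeR's filter -0.00 for Timp1 and with the replicate block -0.12 for Timp1.

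Depth limits what can be said of low genes, treated mouse 4 having 7044386 counts. The groups hold 3 and 4 mice, CCl4 without particle only 2, and cell numbers were not measured.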
